A study of Homo sapiens with 12 samples.

Results

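The genes of the IκB kinases and of the atypical protein kinases C are described here: CHUK, IKBKB, IKBKG, IKBKE, TBK1, PRKCI and PRKCZ. They were chosen by gene symbol, and all 7 were found once each among the 58735 genes of the deposited tables. RNA was sequenced from HLE-B3 cells, which come from human lens epithelium and were immortalized, with 3 biological replicates in each of 4 groups. These were wild type (WT) and ATG7 knockout (ATG7 KO) cells, untreated at 0 h or treated with 200 µM hydrogen peroxide (H2O2) for 12 h. The labels write the knockout genotype as Atg7KO, and all groups grew in the same serum-containing medium. ATG7 encodes an enzyme needed to conjugate the LC3 family proteins that build autophagosomes. The knockout was made with CRISPR/Cas9 from picked clones after puromycin selection, and the clone or clones that were sequenced are not named. Since untreated cells stood at 0 h, an effect of H2O2 and one of 12 h in culture cannot be told apart.

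CHUK encodes IKKα and IKBKB encodes IKKβ, the catalytic subunits of the IκB kinase complex, and IKBKG encodes its regulatory subunit NEMO. The complex phosphorylates IκB proteins, which are then degraded and release NF-κB dimers into the nucleus. TBK1 and IKBKE encode IKK-related kinases that act in interferon induction, and TBK1 also phosphorylates selective autophagy receptors such as p62. PRKCI and PRKCZ encode PKCι and PKCζ, kinases that work in cell polarity and bind the scaffold p62 (SQSTM1). All of these proteins are controlled largely by phosphorylation and binding, and the RNA level measured here does not report activity.

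Levels are given as FPKM, the authors' fragments per kilobase of gene scaled to the size of the library, which allows genes to be set side by side. Differences are log2 fold changes from edgeR's quasi-likelihood test on the deposited counts, with the standard error (SE) and the Benjamini-Hochberg adjusted p over all genes tested. A gene passed at an adjusted p under 0.01, and was called differentially expressed with a log2 fold change beyond 1 and a mean FPKM above 1 in at least 1 group as well. The libraries held 15602183 to 17659496 reads on genes. Untreated ATG7 KO replicate 1 stood apart, with a mean correlation of 0.976 to its replicates against 0.996 in each of the other 3 groups. The biological coefficient of variation (BCV), the spread that edgeR estimates between replicates, was 0.162 and 0.161 in the comparisons of 2 groups that hold this library and 0.0416 and 0.0470 in the others. The results it changes are given without it. ATG7 RNA itself was not lower in the knockout, at 3.55 ± 0.205 FPKM (SD, n = 3) against 2.55 ± 0.313 untreated (log2 fold change 0.47, edgeR adjusted p = 0.0348) and 2.19 ± 0.137 against 1.96 ± 0.0411 with H2O2 (0.15, adjusted p = 0.135). Reads summed over a gene do not show a small edit, so these values do not check the genotype. Of the lens epithelium markers, CDH2 (N-cadherin) reached 97.9 to 184 FPKM and GJA1 (connexin 43) 23.7 to 51.8. SIX3 lay between 1.85 and 3.21, PAX6 between 0.51 and 1.35 and CRYAB between 0 and 1.98. CRYAA, FOXE3, PROX1, MAF, CDH1, AQP1 and AQP5 were at or near 0. Of 12 lens epithelium markers 3 averaged above 1 FPKM. Of 10 fibroblast and mesenchymal markers 7 did, with a summed level of 958 to 969 FPKM in untreated WT, 568 to 593 in treated WT, 742 to 750 in untreated ATG7 KO and 445 to 455 in treated ATG7 KO cells, mainly from COL1A1 and VIM. Its part in the results was not tested. The markers did not go one way. Their sum was lower in untreated ATG7 KO than in untreated WT cells. Yet edgeR called 2 of the 8 tested higher and 0 lower in untreated ATG7 KO cells (DESeq2 likewise). Of all genes, 4.42% passed as higher and 3.28% as lower. At an unadjusted p under 0.05 in edgeR, 3 markers were higher and 3 lower (median -0.29 against 0.01). Without untreated ATG7 KO replicate 1, 3 passed as higher and 3 as lower, where 18.2% and 17.9% of all genes did. The 2 called higher with all libraries were LUM, at 9.52 against 0.168 FPKM, and FAP, at 7.68 against 4.06. COL1A1 (-0.52, edgeR adjusted p = 0.0693) and VIM (-0.20, adjusted p = 0.491) did not pass. The markers of lens fiber, pigment and blood cells summed to at most 2.71, 2.68 and 2.35 FPKM, and LIM2, CRYGD and HBB were at 0 in every library.

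PRKCI was the most abundant of the 7 genes in every library, and its level fell in the order untreated WT, treated WT, untreated ATG7 KO, treated ATG7 KO. In RNA from a whole culture, fewer cells that express a gene and less of its RNA per cell cannot be told apart. The 3 libraries of untreated WT cells held 37.1, 34.5 and 36.4 FPKM. In WT cells with H2O2 they held 25.3, 25.6 and 24.5. The untreated ATG7 KO libraries were at 20.6, 23.2 and 23.4, and the treated ones at 20.3, 19.4 and 19.8. Groups next to each other in that order did not overlap. Its mean ranked above 91.1% of the genes over 1 FPKM in untreated WT cells and above 79.7% in treated ATG7 KO cells. PRKCZ, the other atypical PKC, had the lowest mean FPKM of the 7 in all 4 groups, with 1.40 to 2.02 FPKM over the 12 libraries and 186 to 257 reads. In summed reads of treated WT cells IKBKE was lower, at 553 against 689 for PRKCZ. The groups of PRKCZ differed little. It had means of 1.54 ± 0.125 FPKM in untreated WT, 1.82 ± 0.141 in treated WT, 1.65 ± 0.146 in untreated ATG7 KO and 1.84 ± 0.160 in treated ATG7 KO cells (SD, n = 3).

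The canonical catalytic pair was expressed at intermediate levels. CHUK held 6.005, 5.47 and 5.92 FPKM in untreated WT cells and 6.68, 5.43 and 5.92 in untreated ATG7 KO cells. With H2O2 it rose to 7.85, 8.42 and 8.84 in WT and to 9.53, 8.44 and 8.99 in ATG7 KO cells. Every treated library of CHUK thus lay above every untreated one, and the lines overlapped at both times. IKBKB held 6.49, 7.14 and 6.66 FPKM in untreated WT, 6.92, 6.55 and 6.01 in treated WT, 5.46, 7.70 and 6.98 in untreated ATG7 KO and 7.78, 7.25 and 8.15 in treated ATG7 KO cells. Its lowest value in the untreated ATG7 KO group came from replicate 1, the library that stood apart. Relative to its mean, IKBKG had the widest spread of the 7 in each group but treated ATG7 KO cells. It held 5.06, 3.57 and 3.11 FPKM in untreated WT and 5.66, 3.63 and 3.76 in treated WT cells. In ATG7 KO cells it held 5.05, 7.31 and 3.60 untreated and 3.71, 4.30 and 4.18 with H2O2. All 4 groups of IKBKG overlapped.

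The IKK-related kinases differed in their patterns. TBK1 held 8.95, 7.07 and 7.83 FPKM in untreated WT cells and 9.45, 9.36 and 10.1 with H2O2. In ATG7 KO cells it held 11.2, 8.87 and 9.48 untreated and 12.5, 12.3 and 13.4 with H2O2, so that the treated knockout lay above all other libraries. IKBKE was low in WT cells, with 3.31, 3.36 and 2.63 FPKM untreated and 2.96, 2.62 and 3.22 with H2O2. The untreated ATG7 KO libraries held 7.76, 8.25 and 8.11 FPKM and the treated ones 3.90, 4.27 and 4.87. Each ATG7 KO library of IKBKE exceeded each WT library, and its untreated knockout values stood clear of the other 9.

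The order of the mean FPKM changed below the top. In untreated WT cells PRKCI was followed by TBK1, IKBKB, CHUK, IKBKG, IKBKE and PRKCZ, and TBK1 and IKBKB overlapped, as did IKBKG and IKBKE. With H2O2 CHUK passed IKBKB in FPKM in WT cells, though not in reads, and no neighbours in the order overlapped. In untreated ATG7 KO cells IKBKE took rank 3, above IKBKB, while IKBKB, CHUK and IKBKG overlapped with their neighbours in the order. In treated ATG7 KO cells IKBKE was back at rank 5, where it overlapped with IKBKG. The 7 genes together summed to 62.7 to 68.3 FPKM in untreated WT cells and 57.8 to 62.5 FPKM in the other 9 libraries. PRKCI made up 54.3% to 56.7% of that sum in untreated WT cells and 32.4% to 34.1% in treated ATG7 KO cells.

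The first comparison asked how the lines differed before treatment. In untreated cells 1 of the 7 genes was higher in ATG7 KO cells and 1 was lower, where 7.7% of the 15357 genes tested passed in either direction (4.42% higher, 3.28% lower). The libraries of these 2 genes did not overlap between the lines, as was so for 45.3% of all genes. IKBKE was 2.59-fold higher (log2 fold change 1.37, SE 0.13, edgeR adjusted p = 0.000691). It was also the only one of the 7 genes to be called differentially expressed in any comparison of groups, where 3.5% of all genes were called so in untreated cells, and 5.29% of the genes tested had a larger change. PRKCI was lower by a log2 fold change of -0.69 (SE 0.10, adjusted p = 0.00392). Its call was lost in each of the 5 fits that left out a library other than ATG7 KO replicate 1 (adjusted p = 0.0150 to 0.0326), and the size stayed between -0.72 and -0.67. TBK1 had a log2 fold change of 0.31 (95% interval 0.01 to 0.61, adjusted p = 0.145), and without ATG7 KO replicate 1 it had 0.22 (adjusted p = 0.00851). CHUK at 0.05 (95% interval -0.20 to 0.30), IKBKB at -0.01 (-0.35 to 0.32), IKBKG at 0.44 (-0.23 to 1.11) and PRKCZ at 0.10 (-0.21 to 0.41) did not pass.

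With H2O2, 3 of the 7 genes were higher in ATG7 KO than in WT cells and 1 was lower, where 55.6% of the 15909 genes tested passed (27.7% higher, 27.9% lower). At that background, 4 of 7 is close to the share of all genes. The libraries of the 4 did not overlap between the lines, as was so for 68% of all genes. IKBKE was 1.47-fold higher (0.56, SE 0.11, edgeR adjusted p = 5.63e-05) and TBK1 1.32-fold higher (0.40, SE 0.06, adjusted p = 3.81e-07). PRKCI was lower by -0.35 (SE 0.04, adjusted p = 1.03e-08). For these genes the call held under every alternative run, with each library left out in turn included. IKBKB was 1.18-fold higher (0.24, SE 0.05, adjusted p = 0.000246), but this call did not hold with all 12 libraries in one fit (adjusted p = 0.0921), with limma on log2 FPKM (0.0156), or with an offset for gene length, where the value dropped to 0.05 (adjusted p = 0.434). CHUK was at 0.10 (95% interval -0.02 to 0.21, adjusted p = 0.146), IKBKG at -0.11 (-0.40 to 0.18) and PRKCZ at 0.01 (-0.21 to 0.22). None of the 7 reached a log2 fold change of 1, where 7.46% of all genes were called differentially expressed, and 33.1% of all genes tested changed by more than IKBKE did.

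**Figure D1:**
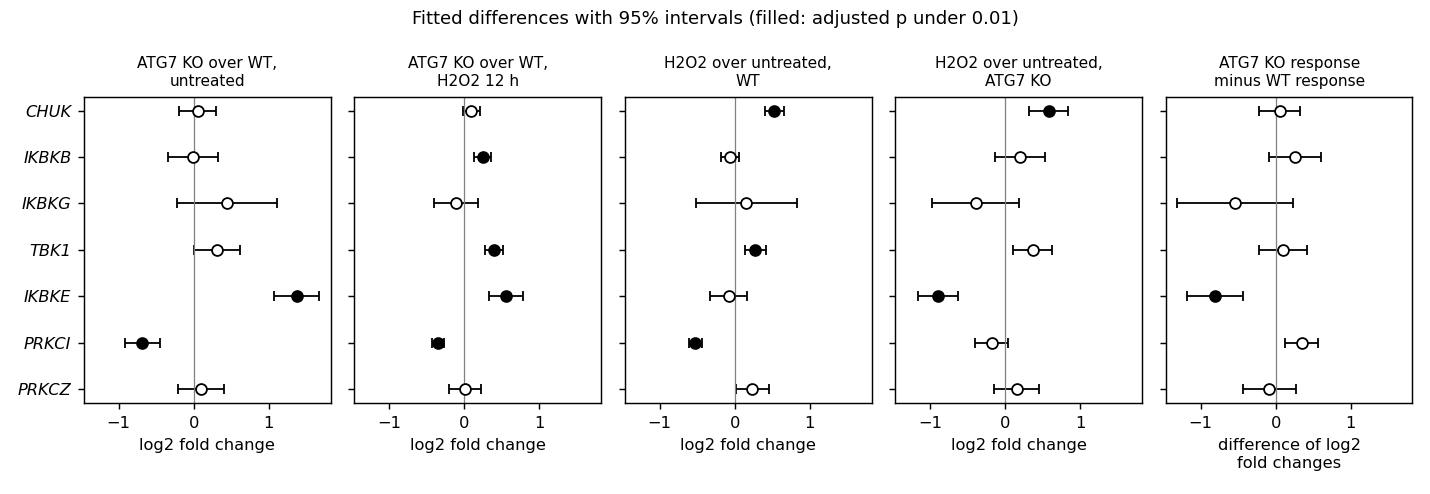
Log2 fold changes of the 7 genes (x axis) with 95% intervals in the 4 comparisons of groups and, in the panel at the right, the difference of the H2O2 responses; filled points passed at an adjusted p under 0.01. IKBKE reaches 1.37 in untreated cells, and the intervals of IKBKG are the widest in each panel.

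The response to H2O2 was examined within each line. In WT cells CHUK and TBK1 rose and PRKCI fell, so that 3 of 7 passed where 61% of 15913 genes did (30.9% up, 30.1% down). The libraries of 4 genes, PRKCZ included, did not overlap between the times, as was so for 71.4% of all genes, and 12.5% of all genes were called differentially expressed. CHUK rose 1.44-fold (0.53, SE 0.06, edgeR adjusted p = 4.5e-10), TBK1 1.21-fold (0.27, SE 0.07, adjusted p = 0.000671), and PRKCI fell by 0.52 (SE 0.05, adjusted p = 3.25e-14). The call of TBK1 was lost in DESeq2 (adjusted p = 0.0124), with limma, with all libraries in one fit and without untreated WT replicate 2 (0.0303). IKBKE did not pass (-0.08, 95% interval -0.33 to 0.16), nor did IKBKB (-0.06), IKBKG (0.15) or PRKCZ (0.24, adjusted p = 0.0568). With the gene length offset 5 genes passed, since IKBKB (0.20, adjusted p = 0.00206) and PRKCZ (0.40, adjusted p = 0.00155) did so as well, which turned the sign of IKBKB.

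In ATG7 KO cells CHUK rose and IKBKE fell, 2 of 7 where 26% of 15475 genes passed (13.6% up, 12.4% down). The libraries of 4 genes, TBK1 and PRKCI included, did not overlap between the times, as was so for 59.6% of all genes, and 11.2% of all genes were called differentially expressed. CHUK rose 1.49-fold (0.58, SE 0.11, edgeR adjusted p = 0.00498), but the call was lost in 5 of the 6 fits that left out a library (adjusted p = 0.0188 to 0.0302) and held only without untreated replicate 1. IKBKE fell by 0.89 (SE 0.11, adjusted p = 0.000948), to 0.539 of its untreated level, and the call held under every alternative. TBK1 was at 0.37 (95% interval 0.10 to 0.63, adjusted p = 0.0336) and PRKCI at -0.18 (-0.40 to 0.04, adjusted p = 0.158). Without untreated replicate 1, 4 of the 7 genes passed, with TBK1 at 0.46 (adjusted p = 1.97e-12) and PRKCI at -0.25 (adjusted p = 6.98e-08) added. IKBKB (0.20), IKBKG (-0.39) and PRKCZ (0.15) did not pass.

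The difference between these responses was tested as an interaction over all 12 libraries. It passed for IKBKE alone, at -0.81 (SE 0.17, 95% interval -1.18 to -0.43, edgeR adjusted p = 0.00474), where 14% of 16856 genes passed (7.02% higher, 7.01% lower) and 5.17% were called differentially expressed. IKBKE thus fell by more with H2O2 in ATG7 KO than in WT cells, in which its treated and untreated libraries overlapped. The adjusted p rose to between 0.0103 and 0.0168 in 6 of the 12 fits that left out a library, with values from -0.85 to -0.69 in those fits. PRKCI had a difference of 0.34 (SE 0.10, adjusted p = 0.0214), a smaller fall in ATG7 KO cells. It passed with DESeq2 (adjusted p = 0.00269) and without untreated ATG7 KO replicate 1 (0.29, adjusted p = 8.68e-05). The values of CHUK (0.05), TBK1 (0.09), IKBKB (0.26), IKBKG (-0.54) and PRKCZ (-0.08) did not pass.

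Ratios of related kinases within a library do not depend on how libraries are scaled. Their size depends on the gene lengths used, while their change between groups does not. With 3 libraries against 3, the exact two-sided permutation test over libraries cannot give a p below 0.10, and 12 such comparisons were made, so no adjusted p is given. The FPKM of PRKCI was 26.5, 21.9 and 22.2 times that of PRKCZ in untreated WT cells and 13.9, 15.3 and 12.5 times in treated WT cells. It was 13.8, 13.6 and 13.3 times in untreated and 11.3, 9.64 and 11.6 times in treated ATG7 KO cells. Groups did not overlap in any of the 4 comparisons of this pair (exact permutation p = 0.10 each). The CHUK to IKBKB ratio in WT cells was 0.926, 0.766 and 0.889 before and 1.13, 1.28 and 1.47 after H2O2. These groups did not overlap (p = 0.10, exact permutation test). The ratio does not settle which kinase was more abundant. In reads IKBKB stayed above CHUK in treated WT cells, at 1134 to 1320 against 898 to 1053. In ATG7 KO cells the ratio was 1.22, 0.705 and 0.848 before and 1.22, 1.17 and 1.10 after, which overlapped (exact permutation p = 0.30). TBK1 exceeded IKBKE in every library. Its ratio to IKBKE was 2.70, 2.11 and 2.98 in untreated WT cells and 1.45, 1.08 and 1.17 in untreated ATG7 KO cells, without overlap (p = 0.10, exact permutation test). After H2O2 it was 3.20, 3.57 and 3.13 in WT and 3.20, 2.89 and 2.76 in ATG7 KO cells, with overlap (exact permutation p = 0.30).

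PRKCI lies on chromosome 3 from 170222365 to 170305981 (GRCh38), on the plus strand, 159 Mb from ATG7, which is on the same chromosome. The genes around it were lower in ATG7 KO cells as well. Of 350 other genes tested that start within 50 Mb of PRKCI, 294 (84%) had a log2 fold change below 0 in untreated cells, with a median of -0.43, against 49.5% and a median of 0.01 over all genes. With H2O2 it was 288 of 362 genes (79.6%), with a median of -0.32 against 0.00. Genes that start 50 to 75 Mb from PRKCI had medians of -0.20 untreated and -0.10 with H2O2, and 61.2% and 57.1% of them lay below 0. Genes of the same chromosome that start 75 Mb or more from PRKCI had medians of 0.05 and 0.08 in these comparisons, and 45.5% and 44.6% of them lay below 0. The H2O2 responses of the genes within 50 Mb had medians of -0.08 in WT and 0.01 in ATG7 KO cells. Set among the 49 genes within 10 Mb, PRKCI at -0.69 in untreated cells lay above 26.5% of them, and with H2O2 at -0.35 it lay above 52% of 50. PRKCI and most genes around it were thus lower in ATG7 KO cells alike, and the part of the surroundings in the value of PRKCI was not tested. Its fall with H2O2 in WT cells, by 0.52, compares libraries of the same line. The distances were chosen after the data were seen.

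IKBKG lies on the X chromosome from 154541199 to 154565046 (GRCh38), on the plus strand, and a pseudogene copy, IKBKGP1, lies on the opposite strand of that chromosome. The 1073-base transcript of IKBKGP1 in GENCODE release 29 was identical to bases 640 to 1712 of the 2299-base IKBKG transcript used here, at all 1073 positions. The edge of this stretch is shown since reads beyond it can be given to either gene. Both lines run 5′ to 3′, and capitals mark bases that are the same in both genes. The IKBKG line covers bases 600 to 719 of the transcript, all coding, from exon 2 (chrX:154552148-154552189) and exon 3 (chrX:154556165-154556242), and the IKBKGP1 line is the start of its exon 1 (chrX:154648196-154648275, minus strand).
IKBKG: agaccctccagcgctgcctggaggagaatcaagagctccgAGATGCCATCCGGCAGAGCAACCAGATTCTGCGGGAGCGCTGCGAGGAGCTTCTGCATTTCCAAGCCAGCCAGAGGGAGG
IKBKGP1: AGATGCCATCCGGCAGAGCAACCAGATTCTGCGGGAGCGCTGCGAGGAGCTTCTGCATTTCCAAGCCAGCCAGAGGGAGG
A read that lies wholly in capitals could come from either gene. Of all 50-base windows of the IKBKG transcript, 48% occur in a transcript of another gene, almost all of them in IKBKGP1.

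The reads counted on IKBKGP1 were uneven between replicates. IKBKG and IKBKGP1 had 311 and 23 reads, 232 and 14, and 195 and 13 in the untreated WT libraries. In treated WT cells they had 339 and 8, 197 and 15, and 228 and 117. The untreated ATG7 KO libraries had 294 and 12, 460 and 77, and 235 and 218, and the treated ones 224 and 112, 249 and 12, and 256 and 16. IKBKGP1 thus held 33.3% to 48.1% of the summed reads in 3 libraries, 1 each of treated WT, untreated ATG7 KO and treated ATG7 KO cells, and 2.31% to 14.3% in the other 9. The coefficient of variation of the IKBKG counts within groups was 6.92% to 35.4%. When the reads of both genes were summed, an alternative chosen after the data were seen, the log2 fold change of IKBKG in untreated cells went from 0.44 to 0.73 (edgeR adjusted p = 0.0769) and the difference of the responses from -0.54 to -0.81 (adjusted p = 0.0618). No comparison of IKBKG passed either way. Its 95% intervals, such as -0.52 to 0.82 for H2O2 in WT cells and -0.97 to 0.19 in ATG7 KO cells, were wider than the one between treated lines (-0.40 to 0.18).

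The other 6 genes shared less sequence. CHUK and IKBKB shared no 50-base window with a transcript of another gene, IKBKE shared 2.08%, PRKCI 6.79% and TBK1 8.08%. For PRKCZ it was 25.4%, all with genes on the opposite strand, mainly FAAP20. Whether the counting used strand is not given in the sources used here, and FAAP20 had 657 to 1073 reads per library where PRKCZ had 186 to 257.

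As PRKCI was set among the genes around it, the others were set beside their 20 nearest tested genes. IKBKE (chromosome 1, 206470476 to 206496889, plus strand) differed from its neighbours, whose medians were -0.13 in untreated cells and -0.23 with H2O2, and it lay above 19 and 18 of the 20. TBK1 (chromosome 12, 64451880 to 64502108, plus strand) lay above 14 of 20 with H2O2, with a median of the neighbours of 0.16, and above 12 of 20 in untreated cells, where the median was 0.26 beside its 0.31 and 4 of the 20 passed as higher. Around IKBKG 17 of 20 neighbours had a log2 fold change above 0 in untreated cells, with a median of 0.24, and 12 of 20 with H2O2, with a median of 0.09. Around IKBKB (chromosome 8, 42271302 to 42332653, plus strand) the median with H2O2 was 0.34 and 12 of 20 neighbours passed as higher, beside its own 0.24. CHUK (chromosome 10, 100188298 to 100229619, minus strand) had neighbours at a median of -0.24 with H2O2 against its 0.10. Around PRKCZ (chromosome 1, 2050470 to 2185395, plus strand) the medians were 0.00 untreated and 0.06 with H2O2.

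Genes whose pattern was most like that of each kinase were sought over the 12 libraries, among 12558 genes with a mean FPKM above 1, by Pearson's r of log2-scaled counts. The 12 points fall into 4 groups, so r mostly reflects group means. The likest were FMN2 (r = 0.99) and FGF5 (0.99) for PRKCI, RAB1A (0.98) and TMEM68 (0.98) for CHUK, and MSC (0.98) and ITGB5 (0.98) for IKBKE. They were LRRC1 (0.97) and ATP6V1D (0.96) for TBK1, MMP15 (0.95) for IKBKB, and ZNF550 (0.85) and RF02038 (0.85) for PRKCZ. IKBKG had no gene above 0.75, with MIR4258 (0.75) and MIR588 (0.70) on top. Among the 7 genes themselves, TBK1 and CHUK had an r of 0.76 and TBK1 and PRKCI one of -0.85.

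Genes that act around these kinases were described in 6 lists. Each count is to be read against the share of all genes that passed in the same direction, which was 30.9% up and 30.1% down for H2O2 in WT cells, 13.6% and 12.4% in ATG7 KO cells, 27.7% higher and 27.9% lower between treated lines, and 4.42% and 3.28% between untreated lines. Without untreated ATG7 KO replicate 1, an omission chosen for the lists after the data were seen, the shares rose to 29.8% and 28.6% for H2O2 in ATG7 KO cells and to 18.2% and 17.9% between untreated lines. Of 22 IKK activators and scaffold partners, all tested, 9 rose and 5 fell with H2O2 in WT cells (median log2 fold change 0.11 against -0.01 over all genes) and 4 rose and 3 fell in ATG7 KO cells (0.12 against -0.03). BCL10, which couples receptors to the IKK complex, rose by 1.19 (SE 0.05, edgeR adjusted p = 2.5e-24) in WT and 1.06 in ATG7 KO cells. TAB3, an adaptor of the kinase TAK1, rose by 0.91 and 1.75, and TAB1 fell by 0.90 in WT cells. SQSTM1, the gene of the scaffold p62, rose by 0.66 (SE 0.04) in WT and 0.56 (SE 0.09) in ATG7 KO cells, and its level did not differ detectably between the lines (0.06, adjusted p = 0.7 untreated and -0.06, adjusted p = 0.144 with H2O2). RIPK1, a kinase that scaffolds IKK at the TNF receptor, was higher in treated ATG7 KO than in treated WT cells by 0.21 (edgeR adjusted p = 0.00136). TRAF6, a ubiquitin ligase, was lower there by -0.35 (edgeR adjusted p = 0.000497). In that comparison 7 list genes were higher and 9 lower (median -0.04 against 0.00). TAB3 was higher by 1.15 and MAP3K8, a kinase also called TPL2, lower by -1.43. In untreated cells none of the 22 passed in edgeR, where 4 were higher and 5 lower at an unadjusted p under 0.05, and 1 was higher and 1 lower in DESeq2. IRAK1 came nearest in edgeR (-0.54, adjusted p = 0.0164). Without untreated ATG7 KO replicate 1, 6 were higher and 7 lower in untreated ATG7 KO cells, and 9 rose and 6 fell there with H2O2.

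The 11 genes listed as IKK brakes include ubiquitin editors and phosphatases that switch the complex off, which does not describe all of them. They rose more often than they fell with H2O2. In WT cells 7 rose and 3 fell with H2O2 (median 0.65 against -0.01 over all genes), and in ATG7 KO cells 4 rose and 1 fell (0.35 against -0.03), or 8 and 2 without untreated ATG7 KO replicate 1. TNFAIP3, which encodes the ubiquitin-editing protein A20, went from 9.62 ± 0.236 to 108 ± 7.72 FPKM in WT cells (log2 fold change 3.48, SE 0.05) and from 20.8 ± 2.84 to 74.9 ± 2.23 in ATG7 KO cells (1.84, SE 0.13). ZC3H12A, an RNase that degrades inflammatory transcripts, rose by 1.89 in WT cells, from 9.65 ± 0.225 to 35.9 ± 0.582 FPKM. In untreated cells 3 brakes were higher in ATG7 KO than in WT cells and none was lower in edgeR (2 lower at an unadjusted p under 0.05 and 1 in DESeq2, median -0.09 against 0.01). Without untreated ATG7 KO replicate 1 it was 3 higher and 3 lower. The 3 called with all libraries were ZC3H12A at 1.79 (SE 0.11, adjusted p = 0.00018), TNIP1, a partner of A20, at 1.27 (SE 0.09, adjusted p = 0.000276), and TNFAIP3 at 1.11 (SE 0.13, adjusted p = 0.00155). With H2O2 3 were higher and 6 lower (median -0.14 against 0.00), with TNIP1 at 0.63, CYLD, a deubiquitinase, at -0.71 and BIRC2, which encodes the ubiquitin ligase cIAP1, at -0.66.

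Of 10 IKK substrates and NF-κB proteins, 7 rose and 2 fell with H2O2 in WT cells (median 0.71 against -0.01), while in ATG7 KO cells 0 rose and 1 fell by edgeR (0.03 against -0.03). In ATG7 KO cells 2 rose at an unadjusted p under 0.05 and 0 in DESeq2. Without untreated ATG7 KO replicate 1, 4 rose and 4 fell there (median -0.11), so that the count of 0 rested on that library. Between untreated lines 1 was higher and 0 lower in edgeR (4 and 0 in DESeq2, 4 and 1 at an unadjusted p under 0.05), and without that library 7 were higher and 1 lower, where 18.2% of all genes were higher. NFKBIA, which encodes IκBα and is itself induced by NF-κB, went from 52.2 ± 2.83 to 155 ± 6.31 FPKM in WT cells (1.56, SE 0.05). It was already at 133 ± 29.4 FPKM in untreated ATG7 KO cells, above untreated WT by 1.34 (SE 0.16, adjusted p = 0.00197), and stood at 97.8 ± 4.24 FPKM with H2O2, below treated WT cells by -0.67 (SE 0.04). The 1 gene called lower with H2O2 in ATG7 KO cells with all libraries was BCL3, an atypical IκB protein, at -0.84 (SE 0.09, adjusted p = 0.000495). The difference of the responses passed for 6 of the 10 genes, all lower in ATG7 KO cells in edgeR and DESeq2, where 7.01% of all genes passed as lower by edgeR. Without untreated ATG7 KO replicate 1 it was 6 of 10 as well, where 16.3% of all genes did. IKBKE shared with NFKBIA and TNFAIP3 a higher level in untreated ATG7 KO than in untreated WT cells and a lower response in ATG7 KO cells. In WT cells, where both of those genes rose with H2O2, IKBKE had a log2 fold change of -0.08. These genes were set side by side after their values were seen.

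Of 12 adaptors, cargo receptors and substrates of TBK1 and IKKε, 3 rose and 5 fell with H2O2 in WT cells (median 0.03 against -0.01), and 2 rose and 3 fell in ATG7 KO cells (-0.21 against -0.03), or 2 and 7 without untreated ATG7 KO replicate 1. STING, the DNA-sensing adaptor listed as TMEM173, rose by 0.85 (SE 0.06) in WT and by 1.22 (SE 0.08) in ATG7 KO cells. MAVS, the mitochondrial adaptor of RNA sensing, fell by 1.63 (SE 0.05) in WT cells. TBKBP1, a TBK1-binding adaptor, fell by 0.76 in WT and 1.45 in ATG7 KO cells. It was also the 1 list gene that passed between untreated lines, lower in ATG7 KO cells at -0.61 (SE 0.10, edgeR adjusted p = 0.00567), while without untreated ATG7 KO replicate 1, 4 were higher and 3 lower. With H2O2 4 list genes were higher and 4 lower in ATG7 KO than in WT cells (median -0.01 against 0.00), among them MAVS at 0.71, TMEM173 at 0.49, TICAM1 at -0.88 and TBKBP1 at -1.30. TBK1 and its adaptor gene TBKBP1 thus differed in opposite directions between treated lines.

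Of 14 polarity partners and activators of the atypical PKCs, 6 rose and 5 fell with H2O2 in WT cells (median 0.10 against -0.01), and 2 rose and 2 fell in ATG7 KO cells (0.33 against -0.03), or 6 and 4 without untreated ATG7 KO replicate 1. PARD6G, one of the PAR6 genes whose proteins bind the atypical PKCs, rose by 1.12 (SE 0.06) in WT and 1.65 (SE 0.12) in ATG7 KO cells. ECT2, a guanine nucleotide exchange factor that PKCι phosphorylates, fell by 1.24 (SE 0.05) and 1.25 (SE 0.08). ECT2 was lower in ATG7 KO cells both untreated, at -0.69 (SE 0.09, edgeR adjusted p = 0.00333), and with H2O2, at -0.70 (SE 0.04). Its gene starts 2.53 Mb from PRKCI and so lies within the stretch of chromosome 3 described above. Between treated lines 6 list genes were higher and 2 lower (median 0.07 against 0.00), with PARD6B at 0.96, NUMB, an endocytic adaptor that the atypical PKCs phosphorylate, at 0.66 and STK11, the polarity kinase LKB1, at -0.82. In untreated cells 0 were higher and 2 lower by edgeR (median -0.11 against 0.01), while 1 was higher at an unadjusted p under 0.05 and 1 in DESeq2. Leaving out untreated ATG7 KO replicate 1 gave 2 higher and 4 lower, with a median of 0.08. Besides ECT2 the gene called lower with all libraries was LLGL2, a polarity gene below 1 FPKM (-0.97, adjusted p = 0.00698).

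The other protein kinase C and D genes moved in several directions. Of 10 such genes 8 were tested in WT cells, where 3 rose and 3 fell with H2O2 (median -0.07 against -0.01), and 9 in ATG7 KO cells, where 4 rose and 1 fell (0.51 against -0.03), or 5 and 2 without untreated ATG7 KO replicate 1. PRKCD, which encodes the isoform PKCδ, rose by 1.69 (SE 0.07) in WT and 1.72 (SE 0.10) in ATG7 KO cells, to 22.4 ± 2.02 and 25.8 ± 1.70 FPKM. PRKCA, which encodes the classical isoform PKCα, fell by 1.26 (SE 0.05) in WT cells, to 9.34 FPKM. At 25.1 FPKM in treated WT and 19.8 in treated ATG7 KO cells, PRKCI then stood beside PRKCD at 22.4 and 25.8. Between untreated lines none of the 7 tested genes of this list passed by edgeR or DESeq2, with 1 lower at an unadjusted p under 0.05. Leaving out untreated ATG7 KO replicate 1 gave 1 higher and 1 lower. Between treated lines 4 were higher and 2 lower (median 0.20 against 0.00).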

How the data were processed

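RNA of 12 libraries of HLE-B3 cells, 3 per group, was sequenced, and per the labels the libraries were made with the NEBNext Ultra RNA kit. According to the submitters' processing notes the authors used HISAT2 2.0.5, featureCounts 1.5.0-p3 and the GRCh38 (hg38) build. The authors deposited whole-number read counts per gene and FPKM, both for 58735 genes. The deposited FPKM equalled count over gene length and library total times 1 factor per library, between 0.949 and 1.02. GENCODE release 29 gave identical coordinates for 58690 genes, and sequences were read from the transcripts of that release. The strand setting and the treatment of reads that match several places are not given in the sources used here, which bears on IKBKG and PRKCZ. Libraries held 15602183 to 17659496 counts on genes (median 17205174).

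Each comparison was fitted on its own 6 libraries, and the difference of the responses on all 12, with edgeR 4.0.16 in R 4.3.3 (TMM scaling, filterByExpr with a minimum count of 10, robust quasi-likelihood F-test), with Benjamini-Hochberg adjustment over all genes tested. The fitting functions were tested on simulated data with the same spread in all comparisons. That spread was below the BCV of the comparisons that hold untreated ATG7 KO cells, and no simulated library stood apart. DESeq2 1.42.0, limma 3.58.1 on log2(FPKM + 1) and log2(FPKM + 0.1), other scalings and filters, a gene length offset (lowess span 0.3), an adjusted p under 0.05, a block for the replicate number and the omission of each library were the alternatives.

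The genes and lists were chosen with earlier results of these data known, and the lists were written from general knowledge. Named from each list in each comparison were up to 2 genes with the highest and 2 with the lowest log2 fold change among those that passed with a mean above 1 FPKM in at least 1 group, plus SQSTM1, RIPK1, TRAF6 genes that make up a count of 5 or fewer and genes whose responses differed between the lines. The study's methods call the samples biological replicates and do not say whether they were separate cultures, so p-values measure the spread between these samples. Their numbers did not pair them. Some results that met these rules are not reported here.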

Additional observations from a re-analysis of the deposited data

Results flagged for a closer look

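IKBKE was the 1 kinase gene of the 7 whose H2O2 response differed between the lines by the interaction test, at -0.81 on the log2 scale (ATG7 KO response minus WT response). In the 6 lists the same edgeR test passed for 22 genes, where 7.02% of all genes passed as higher and 7.01% as lower. Of 22 IKK activators and scaffold partners, 2 were higher, TRAF5 at 0.75 and TAB3 at 0.85, and 2 lower, MAP3K8 at -1.40 and SHARPIN at -0.60. Of 11 IKK brakes, 1 was higher, OTULIN at 0.47, and 3 lower, TNFAIP3 at -1.64, ZC3H12A at -1.52 and TNIP1 at -0.63. Of 10 substrates and NF-κB proteins, 6 were lower, NFKBIA at -2.01, NFKBIE at -1.25, NFKB1 at -1.05, RELB at -0.84, NFKBIB at -0.72 and NFKB2 at -0.52. Of 12 genes around TBK1 and IKKε, 1 was higher, MAVS at 0.99, and 3 lower, IRF3 at -0.85, TANK at -0.79 and TBKBP1 at -0.69. Of 14 partners of the atypical PKCs, 2 were higher, NUMB at 0.60 and PARD3 at 0.55, and 1 lower, STK11 at -0.73. Of the other PKC and PKD genes, PRKD2 was higher at 0.72. Without untreated ATG7 KO replicate 1, the shares of all genes rose to 17.8% higher and 16.3% lower. The counts higher and lower were then 5 and 4 activators, 2 and 6 brakes, and 0 and 6 substrates and NF-κB proteins. They were 4 and 5 genes around TBK1 and IKKε, 5 and 2 partners of the atypical PKCs, and 1 and 0 other PKC and PKD genes.

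The pseudogene IKBKGP1 held 218 reads in untreated ATG7 KO replicate 3, against 13 to 23 in the untreated WT libraries. The other untreated ATG7 KO libraries held 12 and 77. Between the lines it did not pass, at 2.59 untreated (edgeR adjusted p = 0.0863) and -0.03 with H2O2 (edgeR adjusted p = 0.985).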

How the results depend on the processing

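The 4 calls between treated lines kept their number without any 1 library (4 to 4), and IKBKE between untreated lines and in treated against untreated ATG7 KO cells passed under every alternative. Without 1 library, 1 to 3 genes passed between untreated lines, 2 to 3 for H2O2 in WT, 1 to 4 in ATG7 KO cells and 0 to 2 for the difference of responses. The last gave 0 without untreated WT replicate 1 or 3, treated WT replicate 1 or 3 or treated ATG7 KO replicate 1 or 2. It gave 2 without untreated ATG7 KO replicate 1, with DESeq2 and at an adjusted p under 0.05, where PRKCI joined IKBKE. With the gene length offset 5 genes passed for H2O2 in WT and 1 in ATG7 KO cells. Same-numbered libraries of different groups had correlations of their deviations of -0.10 to 0.11, so the numbers pair nothing. With the replicate number as a block, only IKBKE passed between untreated lines (1.38, edgeR adjusted p = 0.00427), and PRKCI lost its call (-0.69, adjusted p = 0.0199). For the difference of responses 0 genes passed, as IKBKE lost its call (-0.81, edgeR adjusted p = 0.0103). No other call of the 7 genes changed.

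Signs turned for values that had not passed. With the length offset IKBKB went to 0.16 between untreated lines and 0.20 for H2O2 in WT cells, and for the difference of responses CHUK went to -0.12 and IKBKB to -0.11. PRKCZ between treated lines went to -0.10 with that offset, -0.033 with upper quartile scaling, -0.015 with at least 10 counts in every library, and -0.048 to 0.070 without 1 library. Without 1 library IKBKG ranged from -0.23 to 0.13 between treated lines and from -0.091 to 0.36 for H2O2 in WT cells. Between untreated lines CHUK ranged from -0.023 to 0.12, IKBKB from -0.12 to 0.12 and the CHUK to IKBKB log2 ratio from -0.15 to 0.25, and for the difference of responses CHUK ranged from -0.0081 to 0.14. The cause of these changes was not tested. PRKCZ had at most 257 reads in a library, which limits its precision.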

Other observations

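The remaining genes of the lists that passed in edgeR included PARD3B, a relative of the polarity scaffold PAR3, which fell with H2O2 by 1.92 in WT and 2.38 in ATG7 KO cells. PRKD1, the gene of protein kinase D1, fell by 1.21 and 0.94.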
